A study of Mus musculus with 16 samples.

Results

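A set of 10 genes that encode neurotrophic factors, their receptors or receptor chains were followed through the spinal cord of transgenic mice: Cntf, Cntfr, Lifr, Il6st, Bdnf, Ntrk2, Gdnf, Gfra1, Ret and Mdk. They were chosen by gene symbol, and all 10 were present among the 18167 genes of the expression table. RNA-Seq had been performed on spinal cords of 16 mice, 1 library per mouse, to follow a profilin 1 model of amyotrophic lateral sclerosis from the time before symptoms to end stage. Mutant mice carried human PFN1 with the G118V change (C57BL/6N background, transgene Tg(Prnp-PFN1*G118V)838Kiaei) and were either young (MY, n = 3, 50 days old) or old and at end stage (MO, n = 5, 175 to 245 days old). Control mice carried unchanged human PFN1 (same background, transgene Tg(Prnp-PFN1)850Kiaei) and were young (WY, n = 3, 50 days old) or old (WO, n = 5, 190 to 294 days old). Both transgenes were driven by the prion protein gene promoter, which is active in many cell types, and no group without a transgene was compared. The young mice belonged to batch 1. MO and WO each had 3 mice in batch 1 (MO1 to MO3, WO1 to WO3) and 2 in batch 2 (MO4, MO5, WO4 and WO5). WO1 to WO3 were 190 days old and WO4 and WO5 were 294 days old, so that age and batch cannot be told apart in WO. MO4 was 224 and MO5 175 days old, so that differences within batch 2 are also differences in age.

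Neurotrophic factors are secreted proteins that support the survival, growth and repair of neurons. The ciliary neurotrophic factor Cntf binds its coreceptor Cntfr, which recruits Lifr and the shared signal transducer Il6st (gp130) to activate JAK kinases and STAT3; Bdnf signals through the tyrosine kinase Ntrk2 (TrkB), and Gdnf binds Gfra1, which then engages the tyrosine kinase Ret. Mdk (midkine) is a heparin-binding growth factor, and motor neurons are a classical target of these factors in the spinal cord.

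Levels are log2(1 + FPKM), where FPKM is fragments scaled by transcript length and by library size, so that levels can be set side by side between genes. The values had been corrected for batch and can fall slightly below 0. Batch 2 held old mice only, and whether the correction took account of group is not given in the sources used here. If it did not, the old mice of batch 2 may be shifted against the young mice in MY vs. MO, WY vs. WO and the interaction. Comparisons within batch 1 do not hold such a shift. A log2 fold change is the second group named minus the first, on this scale, which understates the change of genes at low levels. A gene passed both thresholds with a limma false discovery rate (FDR, adjusted over all genes) at or below 0.05 and a fold change of at least 1.5. Passing the FDR alone was counted separately. The number of reads behind each gene is unknown, and differences were weighed against the spread among mice of a group.

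One library went against its label. All mice were labelled male, but MO5 had an Xist level of 3.21, against at most 0.37 in the other 15 libraries, and a Ddx3y level of 1.95, against at least 4.06 in the others. Xist is transcribed from the inactive X chromosome of females and Ddx3y from the Y chromosome. Values without MO5 are therefore given for the members that passed and for each other named gene whose call in MY vs. MO or WO vs. MO ended without it. Counts and values of cell type markers include MO5.

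Cntf was the member with the largest difference. Its levels were 3.93, 4.28, 3.95, 3.61 and 3.77 in MO1 to MO5, and 2.63, 2.84, 3.05, 2.77 and 2.67 in WO1 to WO5. They were 2.94, 2.82 and 2.86 in MY1 to MY3, and 3.42, 3.05 and 3.11 in WY1 to WY3. Each MO mouse was above every mouse of the other 3 groups. Mean levels were 3.91 ± 0.25 (SD, n = 5) in MO, 2.79 ± 0.16 (SD, n = 5) in WO, 2.87 ± 0.06 (SD, n = 3) in MY and 3.19 ± 0.20 (SD, n = 3) in WY, which correspond to 14.01, 5.93, 6.33 and 8.15 FPKM. Cntf rose in MY vs. MO (log2 fold change 1.03, 95% interval 0.74 to 1.33, limma FDR = 0.00102) and in WO vs. MO (1.12, 0.85 to 1.38, limma FDR = 8.6e-05). Without MO5 the log2 fold changes were 1.07 (limma FDR = 0.00231) and 1.15 (limma FDR = 0.000278). Within batch 1 the mean of MO exceeded that of WO by 1.21, and within batch 2, where the WO mice were the older ones, by 0.97.

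**Figure D1:**
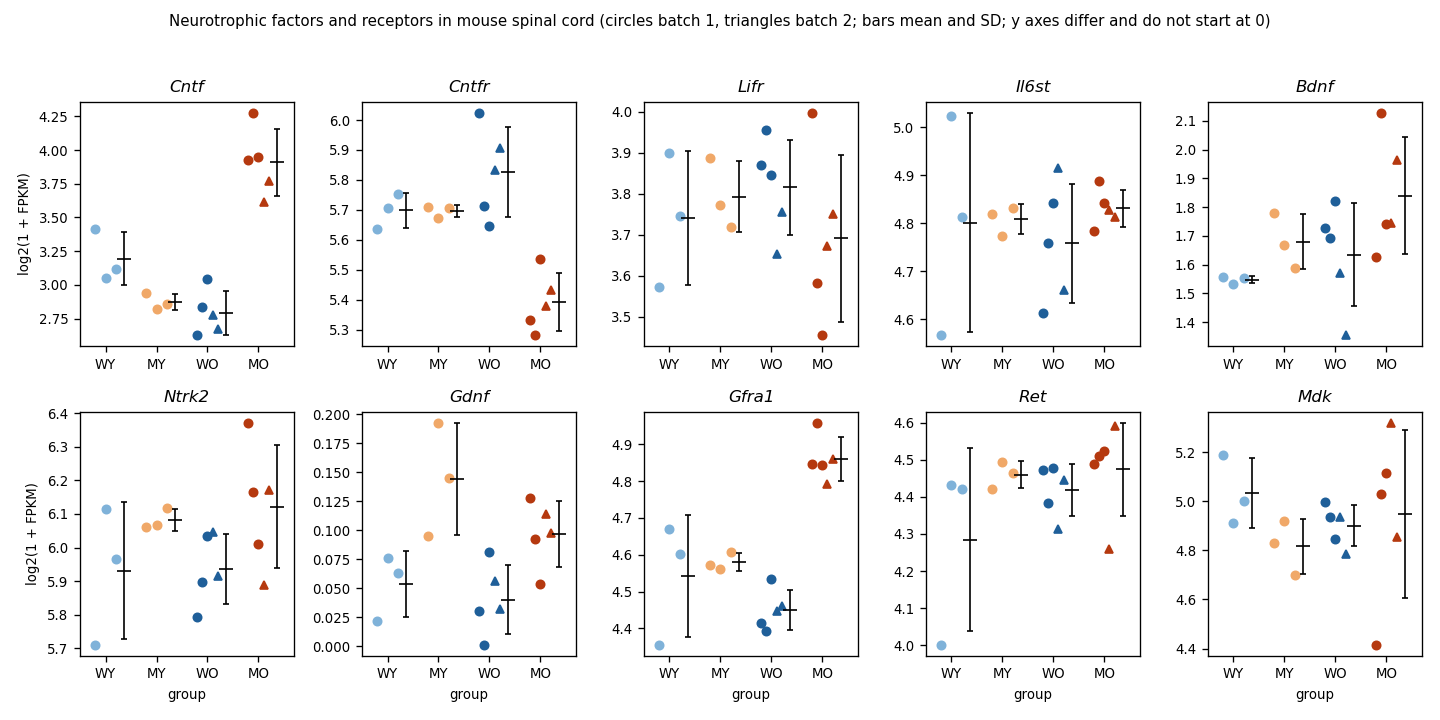
Level of each of the 10 genes, as log2(1 + FPKM), in each mouse by group; circles are batch 1, triangles are batch 2, and bars give the mean and SD of the group (n = 3 for WY and MY, n = 5 for WO and MO). The vertical axes differ between genes and do not start at 0. The MO mice lie above all others for Cntf and Gfra1 and below all others for Cntfr.

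The control and young groups also differed in Cntf before adjustment. The 3 WY mice were above the 3 MY mice (log2 fold change -0.32, limma FDR = 0.648) and above the 5 WO mice (-0.40, limma FDR = 0.155), but neither difference passed the adjusted test. The change with age differed between genotypes: (MO - MY) - (WO - WY) was 1.44 (95% interval 1.05 to 1.82, limma FDR = 0.00013).

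Cntf shares its position with another gene. It lies at chr19:12763660-12765632 on the minus strand (GRCm38), wholly within Zfp91 (chr19:12763660-12796126, same strand), so that fragments of the 2 genes may have been exchanged in the counting. Zfp91, which encodes a zinc finger protein, had levels of 5.16, 5.23, 5.04, 5.32 and 5.14 in MO1 to MO5 and 5.17, 5.25, 5.29, 5.23 and 5.23 in WO1 to WO5. These groups overlapped, and the difference did not pass (log2 fold change -0.06, limma FDR = 0.475). In MY1 to MY3 Zfp91 was at 5.44, 5.35 and 5.33, above every MO mouse, and the difference in MY vs. MO was opposite in sign to that of Cntf and did not pass (-0.20, limma FDR = 0.0555).

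Cntfr, the binding coreceptor of Cntf (chr4:41657498-41697089, minus strand), moved in the other direction. Its levels were 5.33, 5.28, 5.53, 5.38 and 5.43 in MO1 to MO5, and 6.02, 5.71, 5.65, 5.83 and 5.91 in WO1 to WO5. They were 5.71, 5.67 and 5.71 in MY1 to MY3, and 5.64, 5.71 and 5.75 in WY1 to WY3. The MO mice were below every other mouse. Cntfr fell by 0.30 on the log2 scale in MY vs. MO (limma FDR = 0.00656) and by 0.43 in WO vs. MO (limma FDR = 0.00163), below the fold change threshold in both. Without MO5 the log2 fold changes were -0.31 (limma FDR = 0.0119) and -0.44 (limma FDR = 0.00396). In batch 1 alone the difference from WO was -0.41 and no longer passed (limma FDR = 0.065); in batch 2 it was -0.46. The interaction was -0.43 (limma FDR = 0.0119), and with batch 1 alone -0.41 (limma FDR = 0.0733).

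The signaling chains of the same receptor did not pass in any comparison. Lifr (chr15:7090614-7197489, plus strand) ranged from 3.46 to 4.00 in MO and from 3.65 to 3.96 in WO, with log2 fold changes of -0.10 in MY vs. MO and -0.13 in WO vs. MO. Il6st (chr13:112464070-112510086, plus strand) ranged from 4.78 to 4.89 in MO and from 4.61 to 4.91 in WO; its log2 fold changes were 0.02 (95% interval -0.06 to 0.11) and 0.07 (-0.05 to 0.20).

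Gfra1, the coreceptor that binds Gdnf (chr19:58235604-58455909, minus strand), was higher in MO. Its levels were 4.85, 4.96, 4.84, 4.79 and 4.86 in MO1 to MO5, and 4.42, 4.39, 4.53, 4.45 and 4.46 in WO1 to WO5. They were 4.57, 4.56 and 4.61 in MY1 to MY3, and 4.36, 4.67 and 4.60 in WY1 to WY3. Every MO mouse was above every mouse of the other groups. Gfra1 rose by 0.28 on the log2 scale in MY vs. MO (limma FDR = 0.00279) and by 0.41 in WO vs. MO (limma FDR = 5.97e-05), again below the fold change threshold. Without MO5 these values were 0.28 (limma FDR = 0.00672) and 0.41 (limma FDR = 0.00027). The difference from WO was 0.44 within batch 1 and 0.37 within batch 2, and the interaction was 0.37 (limma FDR = 0.00792). An antisense gene, Gm16277, overlaps the end of Gfra1. The libraries were prepared with a stranded kit, but whether the counting used strand is not given in the sources used here.

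The ligand and the kinase of that receptor did not pass on the scale used here. Gdnf (chr15:7810846-7837575, plus strand) was close to the floor of the assay, with at most 0.19 in any mouse, so no fold is given. With a pseudocount of 0.1 in place of 1, Gdnf had a limma FDR of 0.037 in WO vs. MO. Ret (chr6:118151745-118197718, minus strand) ranged from 4.26 to 4.59 in MO and from 4.31 to 4.48 in WO, with a log2 fold change of 0.06 (95% interval -0.08 to 0.19).

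Bdnf (chr2:109674700-109727007, plus strand) was low. Its levels were 1.63, 2.13, 1.74, 1.74 and 1.96 in MO1 to MO5 and 1.73, 1.69, 1.82, 1.57 and 1.36 in WO1 to WO5. The groups overlapped, and the log2 fold change of 0.21 did not pass (95% interval -0.03 to 0.45, limma FDR = 0.193). The difference was 0.08 within batch 1 and 0.39 within batch 2. Ntrk2 (chr13:58806569-59133970, plus strand), whose full-length and truncated forms cannot be separated in a value per gene, ranged from 5.89 to 6.37 in MO and from 5.79 to 6.04 in WO. Its log2 fold change in WO vs. MO was 0.18 (limma FDR = 0.143), and 0.24 without MO4 (limma FDR = 0.0436). Within batch 1 it was 0.27 and within batch 2 it was 0.05. Antisense genes overlap both Bdnf and Ntrk2.

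Mdk (chr2:91929805-91932297, minus strand) had its lowest and its highest level in the same group: 4.42, 5.03, 5.12, 5.32 and 4.85 in MO1 to MO5. The WO mice lay between 4.79 and 5.00, and the log2 fold change was 0.05 (95% interval -0.26 to 0.36), with -0.07 within batch 1 and 0.23 within batch 2.

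**Figure D2:**
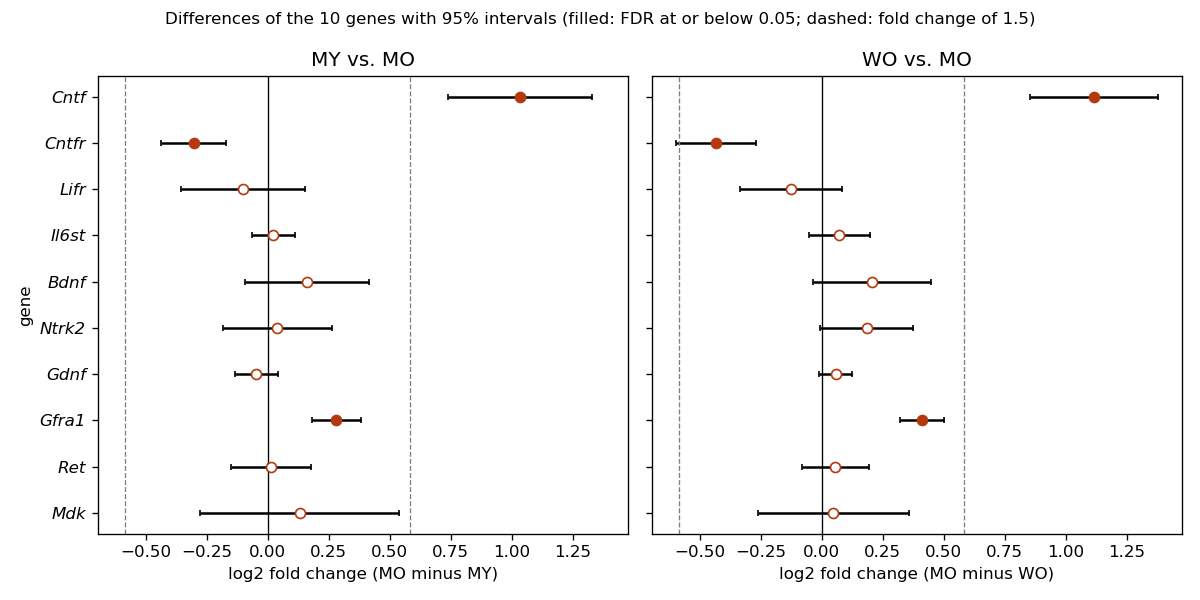
Log2 fold change of the 10 genes in MY vs. MO and WO vs. MO (horizontal axes) with 95% limma intervals; filled points passed an FDR of 0.05 and dashed lines mark a fold change of 1.5. Cntf lies beyond the dashed line in both panels, Gfra1 and Cntfr pass the FDR inside it, and the intervals of the other 7 genes include 0.

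Of the 10 members, 1 (Cntf) passed both thresholds upward in MY vs. MO, where 4.11% of all genes did, and 0 passed downward, where 0.787% did. At the FDR alone 2 rose (13.1% of all genes) and 1 fell (12.5%), so that 3 of 10 members passed, near the 25.6% of all genes. In WO vs. MO the counts were 1 upward (4.08% of all genes) and 0 downward (0.517%) at both thresholds. At the FDR alone they were 2 upward (15.0%) and 1 downward (12.9%), again 3 of 10 beside 27.9% of all genes. These 2 comparisons share the MO mice. Groups did not overlap for 3 members in MY vs. MO (31.6% of all genes), 3 in WO vs. MO (19.9%), 1 in WY vs. WO (9.67%) and 3 in WY vs. MY (13.7%). All MO mice were above all other mice for 2 members (7.58% of all genes) and below them for 1 (2.66%). The median log2 fold change of the members was 0.03 in MY vs. MO and 0.06 in WO vs. MO, beside 0.00 over all genes in both.

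In the interaction 1 member passed both thresholds upward (4.65% of all genes) and 0 downward (0.963%); at the FDR alone 2 passed upward (10.5%) and 1 downward (7.19%). In WY vs. WO limma called 0 members at both thresholds (0.253% of all genes) and 0 at the FDR alone (1.12%), and 1 had an unadjusted p below 0.05. In WY vs. MY limma called 0 members at the FDR alone, where 0.00550% of all genes passed, and 1 had an unadjusted p below 0.05. Cntf was that member in both.

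The order of the levels was similar between groups. Ntrk2 was highest in each group (60.3 FPKM at the mean of WO and 68.6 at that of MO), followed by Cntfr (55.7 and 41.0) and Mdk (28.9 and 29.9). Bdnf (2.10 and 2.58) and Gdnf (0.028 and 0.070) were lowest. In WO the mice overlapped between Ntrk2 and Cntfr, between Mdk and Il6st and between Gfra1 and Ret. Cntf was below Lifr in every WO mouse, whereas in MO the mean of Cntf was above that of Lifr and the mice overlapped.

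Of 11 other cytokines and receptors that use gp130, 8 rose and 0 fell at the FDR alone in each of MY vs. MO and WO vs. MO, and 3 did not pass. At both thresholds 5 rose in MY vs. MO and 4 in WO vs. MO, and without MO5 these counts were again 5 and 4. The median log2 fold change was 0.42 and 0.49. Osmr, the receptor chain for oncostatin M that pairs with Il6st, had levels of 3.03, 3.10, 3.08, 2.54 and 2.86 in MO1 to MO5 and 1.83, 1.46, 1.26, 0.88 and 1.04 in WO1 to WO5. The groups did not overlap, and Osmr rose by 1.70 in MY vs. MO (limma FDR = 0.000212) and by 1.63 in WO vs. MO (limma FDR = 9.01e-05). Without MO5 these were 1.71 and 1.64.

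Clcf1 encodes a cytokine that also signals through Cntfr. It was at 2.43, 2.28, 2.31, 2.03 and 2.25 in MO1 to MO5 and at 1.04, 1.11, 1.03, 1.05 and 0.89 in WO1 to WO5. The groups did not overlap. Clcf1 rose by 1.07 (limma FDR = 0.000523) and 1.23 (limma FDR = 1.46e-05) in MY vs. MO and WO vs. MO, and by 1.08 and 1.24 without MO5.

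Il6ra, the binding chain of interleukin 6, rose by 0.78 in MY vs. MO and 0.68 in WO vs. MO (0.58 without MO1, just below the fold change threshold). Ctf1, which encodes cardiotrophin 1, rose by 0.67 in MY vs. MO and, at the FDR alone, by 0.56 in WO vs. MO. Lif (0.31 and 0.31), Osm (0.42 and 0.49) and Il11ra1 (0.37 and 0.23) passed the FDR alone in both comparisons. Lif and Osm were low, with at most 0.81 in any mouse, and in MY vs. MO neither passed without MO5 (limma FDR = 0.0824 for Lif and 0.0522 for Osm). Over the alternatives in MY vs. MO the call of Lif was lost in 12 of 17 (among them any MY mouse, MO2, MO3 or MO4 left out, and batch 1 alone) and that of Osm in 7 of 17 (among them any MY mouse or MO2 left out). In WO vs. MO batch 1 alone ended the calls of Lif (limma FDR = 0.216) and Il11ra1 (limma FDR = 0.0534). Il6, Il11 and Ctf2 did not pass, and the mean of Il11 was 0.54 in WO and 0.44 in MO. With quantile normalization Il11 newly passed in WO vs. MO (-0.16, limma FDR = 0.0396).

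**Figure D3:**
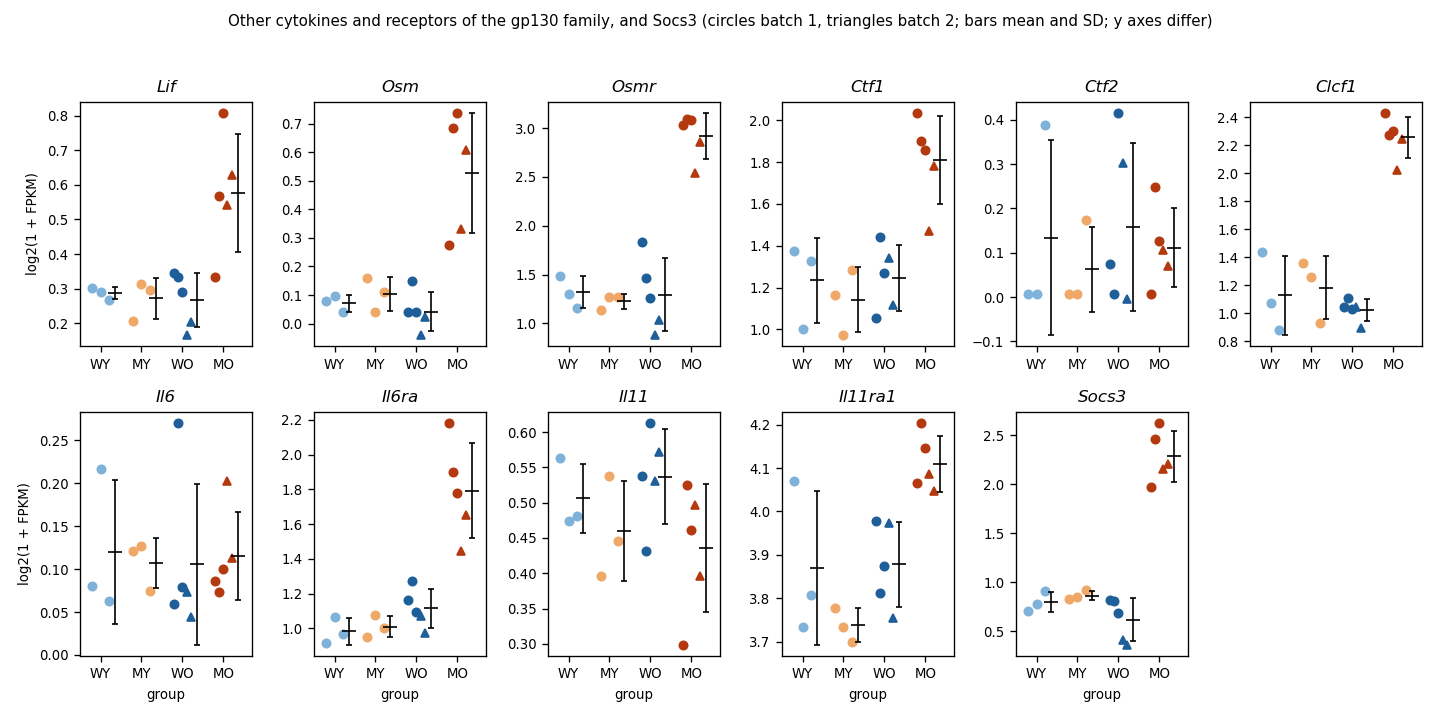
Level of 10 further cytokines and receptors of the gp130 family and of Socs3, as log2(1 + FPKM), in each mouse by group; circles are batch 1, triangles are batch 2, and bars give mean and SD. The vertical axes differ between genes. The MO mice lie above all others for Osmr, Clcf1, Ctf1, Il6ra, Osm and Socs3, while Il6, Il11 and Ctf2 overlap between groups.

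Of 12 genes that carry or restrain the signal of gp130, 1 passed both thresholds upward in each comparison. Socs3, the feedback inhibitor that binds Il6st, had levels of 1.97, 2.46, 2.63, 2.16 and 2.21 in MO1 to MO5 and 0.83, 0.81, 0.69, 0.42 and 0.37 in WO1 to WO5. The groups did not overlap; Socs3 rose by 1.42 in MY vs. MO (limma FDR = 0.000357) and by 1.67 in WO vs. MO (limma FDR = 2.21e-05), and by 1.44 and 1.69 without MO5. At the FDR alone 3 rose and 1 fell in MY vs. MO, and 4 rose and 1 fell in WO vs. MO. Among these, named after their values were seen, Stat3 rose by 0.38 and 0.48 and the kinase gene Jak1 fell by 0.23 and 0.20. Also named after their values were seen, Socs1 rose in MY vs. MO (0.25) and Socs2 in WO vs. MO (0.20). The call of Socs1 was lost in 12 of 17 alternatives, among them without MO5 (limma FDR = 0.0686), and each of MO1, MO3, MO4, MY1 and MY2 left out also ended it. With quantile normalization Socs1 was at 0.15 (limma FDR = 0.16) and Socs2 at 0.10 (limma FDR = 0.159). Batch 1 alone ended the calls of Socs2 (limma FDR = 0.147) and, in WO vs. MO, of Jak1 (limma FDR = 0.155), and 1 fit of 4 groups ended both calls of Jak1.

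Of 12 genes of the wider neurotrophin family, limma called 0 at both thresholds in MY vs. MO and 0 in WO vs. MO, and 6 had an unadjusted p below 0.05 in each. At the FDR alone 4 fell in MY vs. MO and 5 in WO vs. MO, and 0 rose. Named after their values were seen, these included the sorting receptor Sort1 (-0.40 and -0.35) and its relatives Sorcs1 (-0.22 and -0.29) and Sorcs3 (-0.21 and -0.25), and the protease gene Pcsk1 (-0.36 and -0.24). The call of Pcsk1 was lost in 6 of 18 alternatives in MY vs. MO and in 13 of 20 in WO vs. MO. In the first, these included MY1 or MY3 left out, and in the second MO1, MO3, MO4, WO2, WO3 or WO4 left out; batch 1 alone ended both (limma FDR = 0.0537 and 0.171). Sorcs3 lost its call in 6 of 18 (among them MO3, MY1 or MY3 left out) and 2 of 20. The ligands Ntf3 and Ntf5 and the receptors Ngfr and Ntrk3 did not pass. In MY vs. MO Ngfr newly passed upward with batch 1 alone (0.32, limma FDR = 0.0406) and with batch as a term (0.32, limma FDR = 0.0325). It also did so in 1 fit of 4 groups without batch (0.25, limma FDR = 0.0431) and with batch (0.27, limma FDR = 0.0479).

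In the GDNF family 8 of 9 genes were in the table, and 1 passed both thresholds upward in each comparison. Gdf15, a distant relative of Gdnf whose receptor also uses Ret, had levels of 1.04, 1.04, 1.23, 0.89 and 1.01 in MO1 to MO5 and 0.13, 0.14, 0.15, -0.04 and -0.16 in WO1 to WO5. The groups did not overlap, and Gdf15 rose by 0.90 in MY vs. MO (limma FDR = 0.000247) and by 1.00 in WO vs. MO (limma FDR = 2.16e-05), and by 0.91 and 1.01 without MO5. At the FDR alone the ligand gene Nrtn rose (0.51 and 0.39). Its difference from WO was 0.22 within batch 1, which did not pass (limma FDR = 0.185), and 0.65 within batch 2. The call in WO vs. MO was lost in 12 of 20 alternatives, among them MO1, MO2, MO3, MO4, WO2, WO4 or WO5 left out, and that in MY vs. MO without MY1 or MY3. Ncam1, an alternative signaling partner of Gfra1, fell (-0.20 and -0.21). Its call ended in MY vs. MO without MY1 or MY3 and in WO vs. MO with batch 1 alone (limma FDR = 0.0852). The coreceptor gene Gfra4 fell in MY vs. MO (-0.22), but this call was lost in 11 of 18 alternatives. They included leaving out MO5 (limma FDR = 0.0909), 1 fit of 4 groups (limma FDR = 0.166), and each of MO1, MO2, MO3 and the MY mice left out. Artn, Pspn, Gfra2 and Gfra3 did not pass. In WO vs. MO Gfra3 newly passed, as a decrease, under 3 alternatives. These were a pseudocount of 0.1 (limma FDR = 0.0175), quantile normalization (limma FDR = 0.0293) and an intensity trend (limma FDR = 0.0263).

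Of 9 genes related to Mdk, 1 passed both thresholds upward and 1 downward in MY vs. MO, and 2 upward and 0 downward in WO vs. MO. The heparan sulfate proteoglycan Sdc4 rose by 0.70 and 0.81. Sdc1 rose by 0.42 at the FDR alone in MY vs. MO and by 0.61 at both thresholds in WO vs. MO. Without MO5 the value of Sdc1 in WO vs. MO was 0.58, just below the fold change threshold, which left 1 gene. Ptn, the paralog of Mdk, was at 4.39, 4.63, 4.85, 5.25 and 5.16 in MO1 to MO5 and at 5.49, 5.43 and 5.42 in MY1 to MY3. The mice of batch 2 were the highest of MO, while the MY mice were all of batch 1, so that the batch correction may enter this difference. Ptn fell by 0.59 in MY vs. MO (limma FDR = 0.047). This call was lost in 7 of 18 alternatives, among them MO2, MO3 or any MY mouse left out, and without MO1 the value was -0.47. In WO vs. MO Ptn did not pass (-0.34, limma FDR = 0.114), with -0.54 within batch 1 (limma FDR = 0.0248) and -0.04 within batch 2. Ptn newly passed there with batch as a term (limma FDR = 0.0486) and in 1 fit of 4 groups with batch (limma FDR = 0.0149). Alk, a receptor described for Mdk, fell by 0.20 and 0.15 at the FDR alone. Its calls were lost in 11 of 18 and 13 of 20 alternatives, in both comparisons with an intensity trend (limma FDR = 0.0517 and 0.0537) and with MO2, MO3 or MO4 left out. Any MY mouse left out ended the first, and WO2, WO3, WO4 or WO5 left out the second. Ptprz1, Ltk, Lrp1 and Sdc3 did not pass. With batch 1 alone Lrp1 newly passed in MY vs. MO (0.24, limma FDR = 0.033).

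Among 22 other trophic factors and receptors, 4 passed both thresholds upward and 1 downward in MY vs. MO, and 5 upward and 2 downward in WO vs. MO. At the FDR alone 5 rose and 5 fell in MY vs. MO, and 5 rose and 8 fell in WO vs. MO. Without MO5 the totals at both thresholds were 6 and 7, and Nrg1 (-0.59) then passed both in MY vs. MO. The largest were Grn, which encodes the lysosomal protein progranulin (1.89 and 2.00), the growth factor genes Igf1 (1.37 and 1.54) and Fgf2 (0.79 and 0.78). Without MO5 these values were 1.91 and 2.02 for Grn, 1.34 and 1.51 for Igf1 and 0.81 and 0.81 for Fgf2. In batch 1 alone Fgf2 did not pass in WO vs. MO (0.77, limma FDR = 0.0819). The other genes at both thresholds, named after their values were seen, were Hgf (0.69 and 0.68), Met in WO vs. MO (0.69), Erbb3 in MY vs. MO (-0.73), and Vegfa (-0.72) and Nrg1 (-0.69) in WO vs. MO. In MY vs. MO Vegfa did not pass but newly passed in 8 of 18 alternatives. Among them were batch as a term (-0.54, limma FDR = 0.04) and 1 fit of 4 groups with batch (-0.51, limma FDR = 0.0102).

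Markers of cell types moved in the same mice. In bulk tissue, fewer cells of a type and less RNA per cell cannot be told apart. Of 10 microglia markers, 9 passed both thresholds upward in MY vs. MO and 8 in WO vs. MO. Their summed level was 385, 492, 577, 372 and 383 FPKM in MO1 to MO5 and 163, 175, 176, 134 and 129 FPKM in WO1 to WO5. It was 152, 162 and 155 FPKM in MY1 to MY3 and 157, 156 and 153.1 FPKM in WY1 to WY3. Itgax was at or below 0 in at least 1 mouse. Of 10 astrocyte markers, 2 and 4 passed both thresholds upward. Their sum, with Gfap the most abundant, was 4170, 5078, 4579, 4177 and 4186 FPKM in MO1 to MO5 and 2739, 2624, 2764, 2837 and 2597 FPKM in WO1 to WO5. In MY1 to MY3 it was 2966, 3030 and 2942 FPKM, and in WY1 to WY3 it was 3324, 3102 and 3047 FPKM. The sums of both lists were higher in each MO mouse than in any other mouse, as were Cntf and Gfra1. The astrocyte sum rested largely on Gfap, at 10.90 to 11.41 in MO and 9.30 to 10.19 in the other mice. A sum without Gfap was not taken. S100b went the other way in all MO mice but MO4, with 8.90, 9.19, 9.12, 9.47 and 9.07 in MO1 to MO5 and 9.30 to 9.65 elsewhere. At the FDR alone 5 astrocyte markers rose in MY vs. MO and 7 in WO vs. MO, and 0 fell.

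Of 10 neuron markers, 7 fell in MY vs. MO and 6 in WO vs. MO at the FDR alone. Their sum, led by Snap25, was 2346, 2529, 2343, 2533 and 2328 FPKM in MO1 to MO5 and 3203, 2944, 2953, 2901 and 3046 FPKM in WO1 to WO5. It was 2854, 2755 and 2853 FPKM in MY1 to MY3 and 2641, 2738 and 2690 FPKM in WY1 to WY3. Each MO mouse was below every other mouse, as for Cntfr. Of 7 motor neuron markers, 5 fell at the FDR alone in each comparison and 1 at both thresholds in WO vs. MO, with a sum of 46.4 to 57.7 FPKM in MO and 74.5 to 86.5 FPKM in WO (Slc5a7 the most abundant). The sum was 67.1 to 72.4 FPKM in MY and 48.6, 68.4 and 70.4 FPKM in WY1 to WY3, so that WY1 lay within the range of MO. The part of these markers in the results of the members was not tested.

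Schwann cells, the myelinating cells of peripheral nerve, are a known source of Cntf. Of 6 Schwann cell markers, 1 passed both thresholds upward in each comparison, 2 rose at the FDR alone in each, and 1 fell at the FDR alone in MY vs. MO and 0 in WO vs. MO. Named after their values were seen, Egr2 rose by 0.74 and 0.82, Drp2 rose by 0.25 and 0.35, and Pmp2 fell by 0.32 in MY vs. MO. The sum was 16.001, 14.2, 13.9, 12.4 and 13.2 FPKM in MO1 to MO5 and 9.89, 10.6, 10.1, 10.6 and 10.7 FPKM in WO1 to WO5. In MY1 to MY3 it was 11.8, 11.4 and 10.8 FPKM, and in WY1 to WY3 it was 11.1, 10.7 and 10.1 FPKM. Drp2 was the most abundant, and Egr2 was at or below 0 in at least 1 mouse. The part of these markers in the rise of Cntf was not tested.

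Of 8 oligodendrocyte markers (Mbp the most abundant), 4 fell at both thresholds in MY vs. MO and 2 in WO vs. MO, where 1 rose at the FDR alone. In WY vs. WO 4 also fell at both thresholds. Mbp stood apart in batch 2, with levels of 14.11 and 14.14 in MO4 and MO5, 14.22 in WO5 and 5.36 in WO4, against 12.16 to 13.23 in batch 1. The summed level was 7102, 7573, 7661, 22132 and 21555 FPKM in MO1 to MO5 and 10152, 9417, 9433, 5208 and 23802 FPKM in WO1 to WO5. It was 14116 to 15031 FPKM in MY and 14315 to 16527 FPKM in WY. Without WO4 each of the 10 members stayed on the same side of the FDR threshold in WO vs. MO. Of 5 precursor markers (Olig1 the most abundant) 1 fell at both thresholds in MY vs. MO and 0 in WO vs. MO, where limma gave 2 at the FDR alone. Of 7 endothelial markers (Cldn5 the most abundant), 1 fell in MY vs. MO and 6 in WO vs. MO at the FDR alone. Of 6 meningeal fibroblast markers limma called 0 in either comparison, with 1 (Slc47a1) at a mean below 0.1. The sensory neuron list had 5 of 6 genes in the table, with Scn10a, Scn11a and Trpv1 at means below 0.1, and 1 rose in each comparison at the FDR alone. Of 5 skeletal muscle markers 1 fell in WO vs. MO at the FDR alone, with Ckm and Myh4 at means below 0.1. Of 4 blood markers (Hba-a1 the most abundant, Hba-a2 and Hbb-bs at means below 0.1) limma called 0 in either comparison. MO1 stood apart in their sum, with 11.7 FPKM against 43.3 to 96.8 FPKM in the other 15 mice. Without MO1 each of the 10 members stayed on the same side of the FDR threshold in MY vs. MO and WO vs. MO. Of 5 Hox genes that mark spinal position, 1 fell in MY vs. MO, and 1 rose and 1 fell in WO vs. MO, at the FDR alone.

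The genes whose levels over the 16 mice were most like each member that passed were found by the mean absolute difference after each gene's own mean was subtracted. For Cntf these included Ucma (0.10) and Ctsl (0.11), where the median over all genes was 0.45. For Cntfr they were Syt3 (0.05), Kcnc4 (0.05) and Entpd3 (0.06), with a median of 0.18. For Gfra1 they were Mtpn (0.04), Edem1 (0.05) and Slc1a4 (0.05), with a median of 0.18.

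Promoter sequences were examined because Cntf, Socs3, Osmr and Clcf1 rose in the same mice. The RefSeq promoter table used here (GRCm38.p6) matched 8 of the 10 members, with 21 starts; the promoters of Ret and Mdk were not analysed here. The 250 bases before each start were searched on both strands for the letters TTCNNNGAA and TGANTCA. The first are bound by STAT factors. The second include the letters bound by AP-1 but allow any middle base, so that they are looser. Both motifs read the same on either strand and were chosen after the expression values were seen. Of 32851 promoters, 7.02% held the first and 6.75% the second. Cntf had 1 match to the AP-1 letters and none to the STAT letters. Bdnf had 1 match to each, at different starts (TGAATCA for the second), and the other members analysed had none. Of the other genes, Socs3 had 1 match to the STAT letters and Osmr had none; the promoter of Clcf1 was not analysed here. Both sequences are printed on the strand of the gene with the match in capitals, from chr19:12765633-12765882 (minus strand) for Cntf and chr11:117969367-117969616 (minus strand) for Socs3. A match describes letters and no binding was measured.
Cntf: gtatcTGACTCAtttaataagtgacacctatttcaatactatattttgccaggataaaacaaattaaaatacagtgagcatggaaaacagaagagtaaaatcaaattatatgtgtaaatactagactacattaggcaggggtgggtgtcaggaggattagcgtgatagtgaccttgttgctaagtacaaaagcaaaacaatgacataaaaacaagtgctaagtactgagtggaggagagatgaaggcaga
Socs3: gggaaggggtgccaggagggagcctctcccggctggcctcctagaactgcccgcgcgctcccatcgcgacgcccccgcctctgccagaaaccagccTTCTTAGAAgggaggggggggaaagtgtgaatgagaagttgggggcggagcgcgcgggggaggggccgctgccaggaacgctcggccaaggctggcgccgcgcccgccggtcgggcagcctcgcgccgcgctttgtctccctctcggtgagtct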

How the data were processed

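Spinal cord RNA of 16 mice was analysed, with the mouse as unit. The authors deposited log2(1 + FPKM) values; per the labels and methods, Trimmomatic was used for cleaning, TopHat for alignment (mm10) and Cufflinks for FPKM (versions not given in the sources used here), genes at 0 in many mice were removed, and batches were corrected with ComBat. Depth per gene is unknown. Linear models were fitted here to all 18167 genes with limma 3.58.1 in R 4.3.3 (two-sided, Benjamini-Hochberg FDR), each comparison on its own groups and the interaction on all mice; the procedure was tested on simulated data. Python 3.11.15, NumPy 2.4.6, pandas 2.3.3 and matplotlib 3.10.9 were used. Positions came from GENCODE M21 and promoters from RefSeq. Summed marker levels are FPKM turned back from log2.

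The members and lists were chosen with earlier results of these data known. Named were the members, the 3 largest called genes of each list in WO vs. MO, genes that pair with a member as ligand, coreceptor, paralog or feedback inhibitor, and the 3 most similar genes of each member that passed. The results of some genes of the lists are not reported here. Which genes count as pairs was written down after the values were seen, as were the motifs. The marker lists covered microglia, astrocytes, motor neurons, neurons, oligodendrocytes and their precursors, endothelium, Schwann cells, meningeal fibroblasts, sensory neurons, skeletal muscle, blood and spinal position. Alternatives were batch 1 only, batch as a term, 1 fit of 4 groups with and without batch, a pseudocount of 0.1, genes with a mean of at least 1, quantile normalization, an intensity trend, leaving out single mice, blocking on the replicate number, and treat with a minimum fold change of 1.2.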

Additional observations from a re-analysis of the deposited data

Results flagged for a closer look

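The difference between the genotypes in their change with age, (MO - MY) - (WO - WY), passed the limma test for 3 members: Cntf (1.44), Cntfr (-0.43) and Gfra1 (0.37), the last 2 at the FDR alone. Among the other named genes it passed both thresholds upward for Osmr (1.72), Clcf1 (1.18), Ctf1 (0.66), Il6ra (0.65) and Socs3 (1.60). It also did so for Gdf15 (0.97), Sdc1 (0.63), Sdc4 (0.73), Grn (2.00), Igf1 (1.42), Hgf (0.69) and Met (0.65). Without MO1 the value of Il6ra was 0.55, and without WY1 that of Sdc1 was 0.55, both below the fold change threshold. The call of Ctf1 ended without MY2 (limma FDR = 0.0581) or WY1 (limma FDR = 0.0584). The value was negative at both thresholds for Pcsk1 (-0.74), Erbb3 (-0.80) and Nrg1 (-0.89). Nrg1 was at 2.50, 3.59 and 3.39 in WY1 to WY3; without WY1 its value was -0.56, below the fold change threshold. Its call ended without MY3 (limma FDR = 0.0532), with batch 1 alone (limma FDR = 0.0854) and with the replicate number as a block (limma FDR = 0.0793). The levels of Pcsk1 were 4.12, 3.78 and 3.90 in MY1 to MY3 and 3.26, 3.50 and 3.52 in WY1 to WY3, so that the young groups did not overlap, and that difference is part of the contrast. In 20 groups of 5 mice (10 members in MO and WO), 0 had a mouse far from the other 4.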

How the results depend on the processing

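Over the alternatives, 925 of 935 log2 fold changes of the members stayed on the same side of the FDR threshold, 8 no longer passed, 2 newly passed and 0 that passed turned its sign; for the other named genes these were 2683, 212, 39 and 0 of 2934. Cntf passed in MY vs. MO, WO vs. MO and the interaction under every alternative run (log2 fold change 0.94 to 1.18, 1.02 to 1.23 and 1.32 to 1.59). The calls lost were those of Cntfr and Gfra1 against a fold change of 1.2 (Gfra1 in WO vs. MO excepted), and of Cntfr in batch 1 alone (WO vs. MO and the interaction) and with the block (the interaction). In WO vs. MO, Gdnf newly passed with a pseudocount of 0.1 and Ntrk2 without MO4. Among the other named genes, those that newly passed with 1 mouse left out were Ngfr (0.30 without MO4), Lrp1 (0.27 without MO4), Sdc3 (0.14 without MO1) and Vegfa (-0.34, -0.50 and -0.51 without MO1, MO3 and MO4) in MY vs. MO, and Lrp1 (0.25), Gfra4 (-0.25) and Ptn (-0.44) without MO4, Sdc3 (0.17) without MO1 and Socs1 (0.18) without MO2 in WO vs. MO. In the interaction they were Lif (0.38 without MO1), Socs1 (0.37, 0.41 and 0.44 without MO2, MY3 and WY3), Alk (-0.31 and -0.36 without MO5 and WY3) and Jak1 (-0.44 without WY2).

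With treat, genes were counted by its FDR against a fold change of 1.2 alone, so that a gene below a fold change of 1.5 could count. By this rule there were 2 members in WO vs. MO (1 at both thresholds; Gfra1 was added), 3 gp130 cytokines in MY vs. MO (5), 2 genes of gp130 signal transduction in WO vs. MO (1) and 1 of the midkine family in MY vs. MO (2). Counts at both thresholds moved as follows. A pseudocount of 0.1 gave 9 in place of 5 other trophic genes and 2 in place of 1 GDNF family genes in MY vs. MO, and in WO vs. MO 7 in place of 4 gp130 cytokines and 1 in place of 0 neurotrophin genes. With means of at least 1, fewer genes were tested, and the GDNF family had 0 in both comparisons and the midkine family 1 in WO vs. MO. Quantile normalization gave the midkine family 1 in both. The GDNF family in MY vs. MO had 2 in 1 fit of 4 groups with batch. With each mouse left out, it had 1 to 2 (2 without MY2), and the midkine family had 1 to 2 in both comparisons (1 without MO1, MO2, MO3 or any MY mouse in MY vs. MO, and 1 without MO5 in WO vs. MO). Apart from the mean filter, the cause was not tested.

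Whether the replicate numbers pair the mice is not given in the sources used here and cannot be told from these values. Same-numbered mice did not deviate together in every pair (correlations from -0.21 to 0.38), and not every mouse was most like its own number. In MY vs. MO the 3 correlations were 0.18, 0.09 and 0.15, and each MY mouse was most like the MO mouse of its number. There the block ended the calls of Lif, Osm, Socs1, Jak1, Pcsk1, Sorcs3 and Alk, and Ltk newly passed. With the number as a replicate block, members called were 1 in MY vs. MO, 1 in WO vs. MO, 0 in WY vs. WO, 0 in WY vs. MY and 1 in the interaction, as without it; Cntfr in the interaction had a limma FDR of 0.102. For WY vs. MY, which holds batch 1 alone, batch entered only the fit of 4 groups; batch 1 only and batch as a term of its own fit were not run. Values per gene without counts give no counting error, and low genes such as Gdnf are limited by this most.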
